A study of Mus musculus with 5 samples.

Results

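The genes described here encode SR proteins, the kinases that phosphorylate them and core components of the spliceosome. They were taken as 38 named mouse genes, of which 32 had at least 1 probe set annotated to that gene alone, among 8251 genes so annotated on the array. These 32 genes were read by 45 of the 12422 probe sets that are not controls. Snrpa, Snrpd1 and Snrpd2 were listed only on probe sets shared with other genes and were not analysed here, and no probe set was found for Srsf7, Tra2a and Snrnp70. By class, 7 of 8 SR proteins were measured, 3 of 4 SR-related regulators, 6 of 6 kinases, 3 of 3 factors of the branch point and 3' splice site, 5 of 5 SF3 subunits, 3 of 5 proteins of the U1 and U2 particles, 4 of 6 Sm proteins and the U5 protein Prpf8.

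SR proteins bind exons through RNA recognition motifs and recruit the splicing machinery through domains rich in arginine and serine. SRPK kinases phosphorylate these domains in the cytoplasm and promote nuclear import, and CLK kinases phosphorylate them further in the nucleus and release SR proteins from storage speckles. At the intron, the U1 particle recognises the 5' splice site, SF1 and the U2AF dimer mark the branch point and the 3' splice site, and the SF3 complex anchors the U2 particle there. Sm proteins form the ring shared by most spliceosomal particles, and Prpf8 lies at the catalytic centre. In B lineage cells, splicing to the membrane exons of the heavy chain transcript competes with use of the upstream poly(A) site of the secreted form.

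Polyadenylated RNA of 5 mouse cell cultures was hybridised to 1 Affymetrix array each. AxJ, a plasma cell line, had been stably transfected. Its derivatives carried empty vector on 1 array, overexpressed hnRNP-H on 1, and overexpressed the related RNA-binding protein hnRNP-F on 2, one for subclone B5 and one for D6. All AxJ lines grew in medium with 5% FCS and the selection drug G418 at 1 mg/ml. A20, a line labelled as memory B cells (1 array), grew with the same serum share and no G418 is named for it, so drug and cell type cannot be told apart. AxJ clones had been picked on western blots for high levels of hnRNP-F or hnRNP-H, and the submitters report that secreted relative to membrane heavy chain mRNA was reduced in the hnRNP-F clones. Each line thus is 1 clone or transfectant, and no probe set named Hnrnpf was found on the array. No label describes separate cultures of one line, so a p-value does not speak of spread between cultures. It rests on the spread between the 2 AxJ controls and between the 2 hnRNP-F clones, moderated by that of all probe sets tested.

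The arrays matched the labelled cell types in part. Of 6 plasma cell markers, 5 or 6 exceeded the detection filter, an intensity of 21.8, on every array, but their summed intensity was 14088 to 22195 on the AxJ arrays and 2614 in A20. Of 10 B cell markers on the array, 10 exceeded it in A20 and 4 to 6 in the AxJ lines, with sums of 7529 and 704 to 982. Prdm1, the plasma cell regulator, read 3.16 in A20 and 92.2 to 157 in AxJ, and Igha 58.9 and 7026 to 13968. Some markers did not part the lines, or did so by some probe sets only. The Sdc1 probe set used in the sums read 30.6 in A20 and 20.2 to 44.9 in AxJ. A second Sdc1 probe set did part them, with 3.69 in A20 and 18.3 to 96.2 in AxJ. The B cell marker Ciita read 50.6 and 43.9 to 69.0. Of 4 T cell markers 1 exceeded the filter on each array (sums 49.7 to 103), of 5 myeloid markers 2 or 3 (150.5 to 372, highest in B5) and of 5 stromal markers 2 or 3 (335 to 587, highest in B5). Signal from the 5' end of Gapdh relative to its 3' end, which falls with RNA degradation, was 0.212 (empty vector), 0.181 (B5), 0.384 (A20), 0.683 (D6) and 0.866 (hnRNP-H). Intensities of members are quantile-normalised, in arbitrary units, and are given for the controls in the order empty vector, hnRNP-H and for the clones in the order B5, D6.

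At a limma unadjusted p under 0.05, 7 member genes lay lower in the hnRNP-F clones than in the AxJ controls, though none passed the adjusted threshold: Srsf10, Clk1, Srsf1, Srsf5, Tra2b, Srsf6 and Clk4. RefSeq promoters (GRCm38.p6) were at hand for 6 of them. The 120 bases before the start site of each are shown because these genes were picked by that unadjusted p. Whether they are regulated together was not tested. Capitals mark matches, on either strand, to the TATA box letters TATAAA, the CCAAT box, the GC box letters GGGCGG, the cAMP response element TGACGTCA and the ETS site letters CCGGAAG. Matches may overlap, as GGGCGG and CCGGAAG do in Srsf5.
Srsf10 (chr4:135855951-135856070, plus strand): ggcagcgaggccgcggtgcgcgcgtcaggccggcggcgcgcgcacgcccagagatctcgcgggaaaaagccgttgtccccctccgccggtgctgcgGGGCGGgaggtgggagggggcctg
Srsf1 (chr11:88047253-88047372, plus strand): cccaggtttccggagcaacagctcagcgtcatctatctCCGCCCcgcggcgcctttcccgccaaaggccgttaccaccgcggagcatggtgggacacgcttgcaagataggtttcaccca
Srsf5 (chr12:80945379-80945498, plus strand): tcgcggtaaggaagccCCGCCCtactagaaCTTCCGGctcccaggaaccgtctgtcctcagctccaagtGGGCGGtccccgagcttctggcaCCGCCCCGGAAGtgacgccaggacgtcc
Srsf6 (chr2:162931388-162931507, plus strand): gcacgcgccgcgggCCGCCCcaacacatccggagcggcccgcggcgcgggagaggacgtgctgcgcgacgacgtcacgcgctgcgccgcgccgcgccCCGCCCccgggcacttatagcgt
Tra2b (chr16:22266006-22266125, minus strand): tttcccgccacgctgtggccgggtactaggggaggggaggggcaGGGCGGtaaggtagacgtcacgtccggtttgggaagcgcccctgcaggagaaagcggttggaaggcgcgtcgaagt
Clk4 (chr11:51262994-51263113, plus strand): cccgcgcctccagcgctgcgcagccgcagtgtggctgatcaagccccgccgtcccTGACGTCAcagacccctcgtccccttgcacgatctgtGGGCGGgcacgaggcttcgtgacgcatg

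Over the 250 bases before the start, GGGCGG was found in 6 of these 6 promoters, in 21 of the 29 measured members with a promoter and in 32.7% of all 32851 promoters of the table. CCGGAAG was found in 1 of 6, 11 of 29 and 6.91%, and TGACGTCA in 1 of 6 (Clk4), 2 of 29 and 1.55%. CCAAT was found in 1 of 6 (Srsf10), 10 of 29 and 33.8%, and TATAAA in 0 of 6, 2 of 29 (Srsf2 and Srsf3) and 12.4%. For members the first listed start of each gene was used, while the percentages count every promoter of the table. The 29 include the 6. These are matches of letters in a window, given as a description.

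The first comparison set both hnRNP-F clones against both AxJ controls, empty vector and hnRNP-H. No member passed the threshold, a limma adjusted p under 0.05, where 0.011% of all 9107 probe sets tested did. The members' adjusted p ranged from 0.790 to 0.998. Of the 45 member probe sets 43 exceeded the filter on at least 1 array and were tested. At an unadjusted p under 0.05, 7 of 43 members lay lower and none higher, against 3.1% lower, 2.69% higher and 5.79% in either direction among all probe sets. Both clones lay below both controls for 16 of 43 members, against 19.4% of all probe sets, and above both for 1 of 43, against 18.2%. The 16 include a dim Srsf1 probe set that exceeded the filter in the controls alone, so it was kept only through the group where it was high. The median log2 difference of the members was -0.19, and that of all probe sets 0.01. In these bulk cultures fewer cells that express a gene and less RNA per cell cannot be told apart.

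The 24 probe sets of SR proteins, SR-related regulators and kinases had a median log2 difference of -0.48 and held the 7 members just counted. Of these 24, 20 lay below 0, against 4503 of all 9107 probe sets. They read 16 genes, and 4 of them read Srsf1. With 1 probe set per gene, 20 of all 32 members lay below 0. The 19 probe sets of the core spliceosome had a median of 0.04, with 9 below 0. Both clones lay below both controls for 13 of the 24 and for 3 of the 19. The dim Srsf1 probe set that exceeded the filter in the controls alone is among the 24, the 20 and the 13. Among the 24, hnRNP-H also lay below empty vector for 15, with a median of -0.25, and against hnRNP-H alone the medians were -0.41 for B5 and -0.37 for D6. The difference between these groups of genes was not tested.

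**Figure D1:**
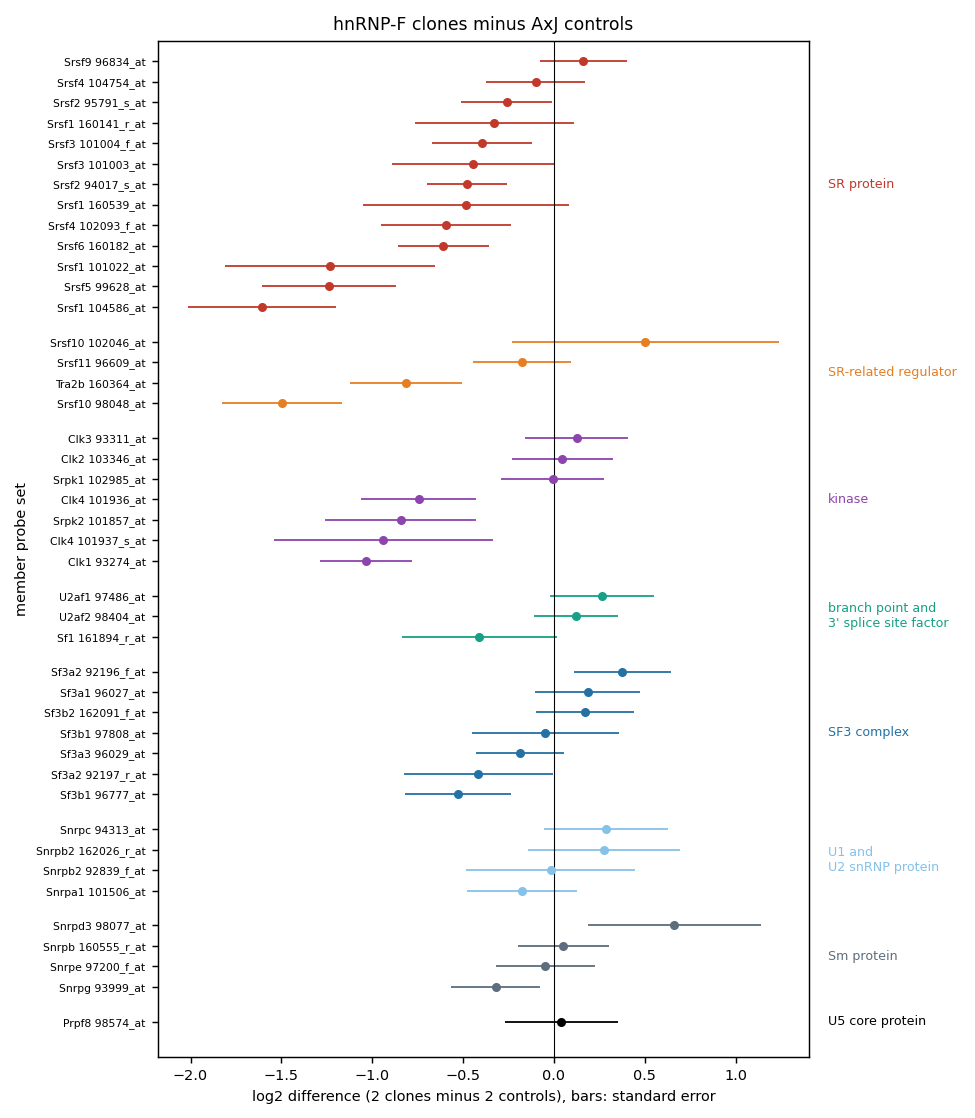
Log2 difference of the 2 hnRNP-F clones minus the 2 AxJ controls (horizontal axis) for the 43 member probe sets tested, by class; points are limma estimates and bars their standard errors. SR proteins lie at a median of -0.48, while the Sm, U1, U2, U5 and SF3 classes spread around 0. Kinase probe sets have a median of -0.74 but split, with Clk2, Clk3 and Srpk1 at 0.05, 0.13 and -0.01.

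Srsf10, an SR-related protein known for repressing splicing when dephosphorylated, read 380.5 and 244 in the controls, 92.5 and 117 in the clones and 168 in A20. Both clones were at least 2-fold below both controls, as was no other member, against 0.406% of all probe sets. The log2 difference was -1.49 (SE 0.33, 2 clones against 2 controls, limma adjusted p = 0.790). A second Srsf10 probe set went the other way, with 7.73 and 50.8 in the controls, 18.2 and 60.1 in the clones and 48.8 in A20. There the groups overlapped and the difference was 0.50 (SE 0.74, limma adjusted p = 0.911). That probe set was high on the arrays of higher Gapdh ratio, and the part of RNA quality in it was not tested.

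Srsf1, the founding SR protein and an exonic enhancer binder, read 248 and 139 in the controls, 41.2 and 77.2 in the clones and 248 in A20 by its brightest probe set. Both clones lay below both controls, and A20 lay level with empty vector. The log2 difference was -1.61 (SE 0.41, limma adjusted p = 0.790). The other Srsf1 probe sets, with no value above 52.0, had differences of -1.23, -0.48 and -0.33. The first of these exceeded the filter in the controls alone (31.7 and 24.5), so it was kept only through the group where it was high, and in the others the clones overlapped the controls.

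Srsf5, a further enhancer-binding SR protein, read 632 and 1014 in the controls, 244 and 462 in the clones and 589.7 in A20. Its clones lay below the controls, but D6 lay nearer to empty vector than to B5. The log2 difference was -1.24 (SE 0.37, limma adjusted p = 0.790). Tra2b, a sequence-specific splicing activator with RS domains, read 975 and 718 in the controls, 374 and 600.2 in the clones and 1243 in A20. D6 was again the nearer clone to the controls, and A20 was the highest array. The log2 difference was -0.81 (SE 0.31, limma adjusted p = 0.790).

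Srsf6, another exonic enhancer binder, read 2275 and 1737 in the controls, 1367 and 1241 in the clones and 1033 in A20. The groups did not overlap, and A20 lay below both clones. The log2 difference was -0.61 (SE 0.25, limma adjusted p = 0.790). The remaining SR proteins differed less. Srsf2 differed by -0.48 and -0.26 in its 2 probe sets, with both clones below both controls in each, Srsf3, which also aids mRNA export, by -0.45 and -0.39, and Srsf4 by -0.59 and -0.10. Srsf9 was the one SR protein above 0, at 0.16, with 1427 and 1779 in the controls, 1762 and 1804 in the clones and 1161 in A20. Without empty vector its difference was 0.0048. Srsf11, an SR-related protein, lay at -0.18.

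**Figure D2:**
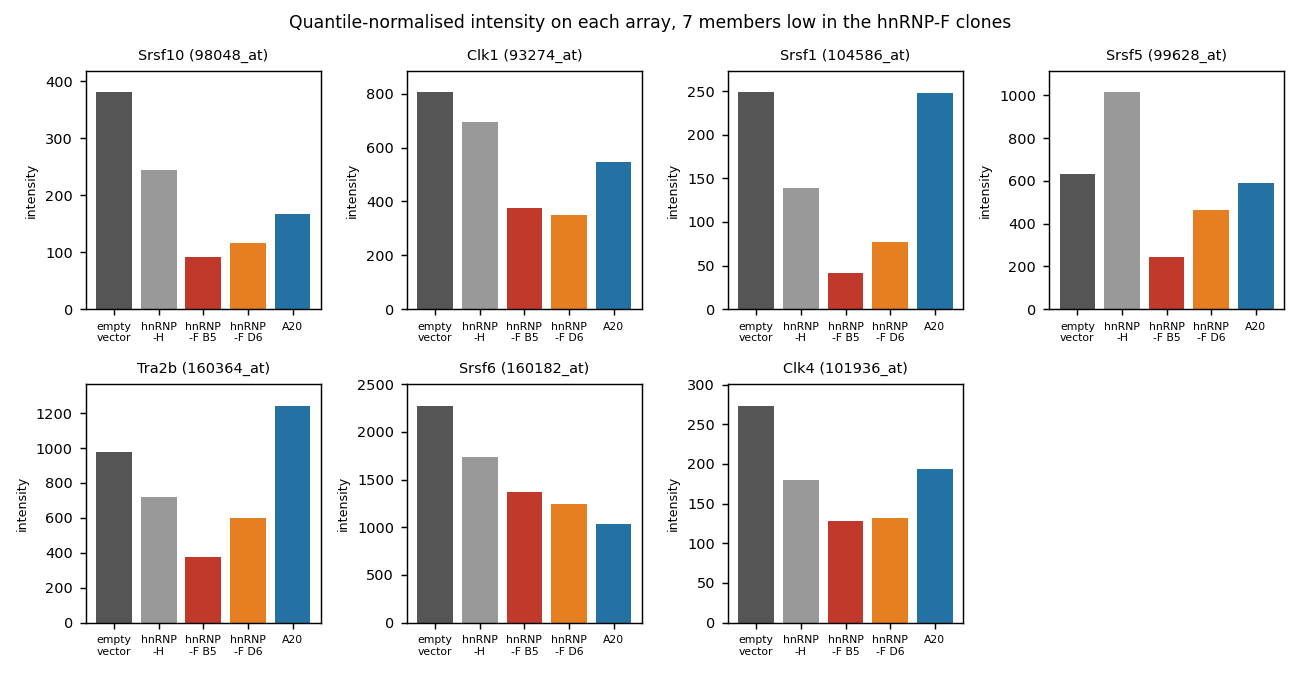
Quantile-normalised intensity (vertical axes, linear, from 0) on each of the 5 arrays for the 7 members low in the hnRNP-F clones at an unadjusted p under 0.05; each bar is 1 array. Both clones lie below both controls in each of the 7 panels, and A20 ranges from the lowest array (Srsf6, 1033) to the highest (Tra2b, 1243).

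The kinases split. Clk1, which phosphorylates SR proteins in the nucleus, read 805 and 694 in the controls, 374 and 349 in the clones and 548 in A20. The clones lay close together, well below both controls, and A20 lay between the groups. The log2 difference was -1.03 (SE 0.25, limma adjusted p = 0.790). Clk4, its close relative, read 274 and 180.1 in the controls, 128 and 132 in the clones and 193 in A20. Its log2 difference was -0.74 (SE 0.32, limma adjusted p = 0.790), and that of a second, dim Clk4 probe set was -0.94, with D6 between the controls.

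Srpk2, one of the cytoplasmic kinases, read 49.6 and 54.4 in the controls, 26.5 and 25.6 in the clones and 26.4 in A20. The clones and A20 lay near the filter and apart from the controls, with a log2 difference between clones and controls of -0.84 (SE 0.41, limma adjusted p = 0.790). At such low intensities the pseudocount sets part of the size. Clk2, Clk3 and Srpk1 differed by 0.05, 0.13 and -0.01. Srpk1 read between 172 and 199 on the 5 arrays, a narrow range.

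The factors that define the intron's 3' end differed between clones and controls on both sides of 0, from -0.53 to 0.38. U2af1 and U2af2, the small and large subunits of U2AF, differed by 0.26 and 0.12, with the controls of U2af1 at 600.2 and 929, its clones at 822 and 982 and A20 at 1099.8. Without empty vector U2af1 lay at -0.05. Sf1, the branch point binder, differed by -0.41 in the 1 of 2 probe sets tested. The second Sf1 probe set read at most 2.06 on any array. Among SF3 subunits, Sf3a1, Sf3a3 and Sf3b2 differed by 0.19, -0.19 and 0.17. Sf3a2 disagreed between its 2 probe sets. The brighter read 899 and 1209.5 in the controls, 1198 and 1537 in the clones and 1789 in A20, a difference of 0.38. The other read 407 and 774 in the controls, 298 and 589 in the clones and 371 in A20, a difference of -0.42. Sf3b1, which contacts the branch point, differed by -0.53 and -0.05. Both clones lay below both controls in the first of these Sf3b1 probe sets and in that of Sf3a3.

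The particle proteins likewise spread around 0. Snrpd3, an Sm protein, had the highest difference among members, 0.66 (SE 0.48, limma adjusted p = 0.803), from controls at 61.7 and 195 and clones at 181 and 177, while A20 read 259. Empty vector was the one low array, so the difference was -0.12 without it. Snrpc, of the U1 particle, read 495 and 1013 in the controls, 869 and 864 in the clones and 754 in A20, and its difference turned from 0.29 to -0.23 without empty vector. Snrpb, Snrpe and Snrpg differed by 0.05, -0.05 and -0.32, Snrpa1 by -0.17 and Prpf8 by 0.04. A second Snrpb probe set read at most 10.6 and was not tested. Snrpb2, of the U2 particle, differed by 0.28 and -0.02 in its 2 probe sets. In the first, B5 exceeded the higher control by 0.01 and D6 exceeded it by 0.54 on the log2 scale, which gave the 1 member with both clones above both controls.

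The arrays of low Gapdh ratio were empty vector and B5, and those of high ratio hnRNP-H and D6, so each clone could be set against the control nearest to it in ratio. This pairing was taken from earlier results of these data. Srsf10 differed by -1.97 for B5 against empty vector and by -1.02 for D6 against hnRNP-H. The pair of values was -2.42 and -0.80 for Srsf1, -1.35 and -1.12 for Srsf5, -1.09 and -0.98 for Clk1, and -0.76 and -0.92 for Srpk2. For Tra2b they were -1.37 and -0.26, so that most of its difference lay in B5. Both pairs were below 0 for 20 of 43 members, against 28.1% of all probe sets, and both above 0 for 7, against 28.5%. Of the 20, 16 were SR proteins, SR-related regulators or kinases. The 16 include the dim Srsf1 probe set that exceeded the filter in the controls alone. With the pairing as a block, 8 members lay lower at an unadjusted p under 0.05 and none passed.

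**Figure D3:**
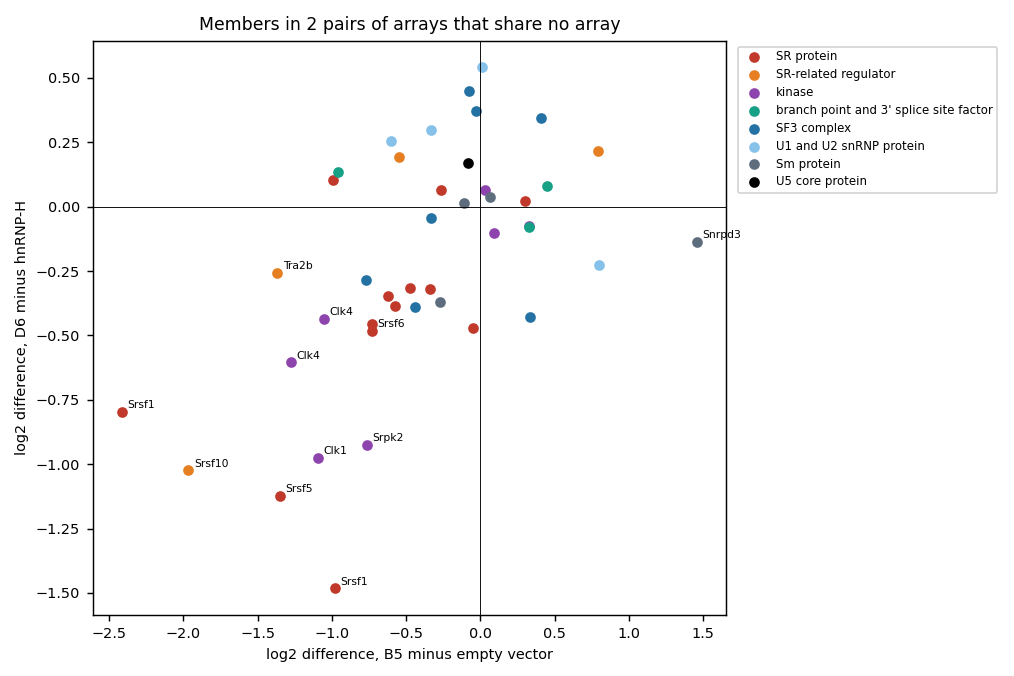
Log2 difference of B5 minus empty vector (horizontal axis) against D6 minus hnRNP-H (vertical axis) for the 43 member probe sets, coloured by class; each point is 1 probe set and each axis 1 array minus another. Of 13 SR protein probe sets 10 and of 7 kinase probe sets 4 lie below 0 on both axes, and the brighter Srsf10 probe set lies at -1.97 and -1.02. The 10 include a dim Srsf1 probe set that exceeded the filter in the controls alone.

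The count of 7 lower members rested on particular arrays. It was 4 without empty vector, 3 without B5, 8 without hnRNP-H and 6 without D6, and no setting brought a member past the threshold in this comparison. The log2 difference of Srsf10 stayed between -1.81 and -1.20 and that of Clk1 between -1.14 and -0.92 over all alternatives run. Without B5 the difference of Srsf5 was -0.78 and that of Tra2b -0.47.

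For 9 genes several probe sets were tested, and in 3 of them (Srsf10, Sf3a2 and Snrpb2) the signs differed in the comparison of clones and controls. In that of A20 and controls they differed in 4 (Srsf1, Srsf3, Srsf10 and Sf3a2). In the maker's naming, 9 of the 45 probe sets end in f_at or s_at, which marks probes shared with related sequences, among them those of Srsf2, Snrpe and the brighter one of Srsf3. For Sf3b1 one probe set read 469 and 317 in the controls, 273 and 259 in the clones and 284 in A20. The other read 433 and 1039 in the controls, 546 and 771 in the clones and 664 in A20. The first was highest and the second lowest in empty vector, so the probe sets of this gene did not order the arrays alike. None was matched here to a splice form or to an intron-retaining transcript.

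**Figure D4:**
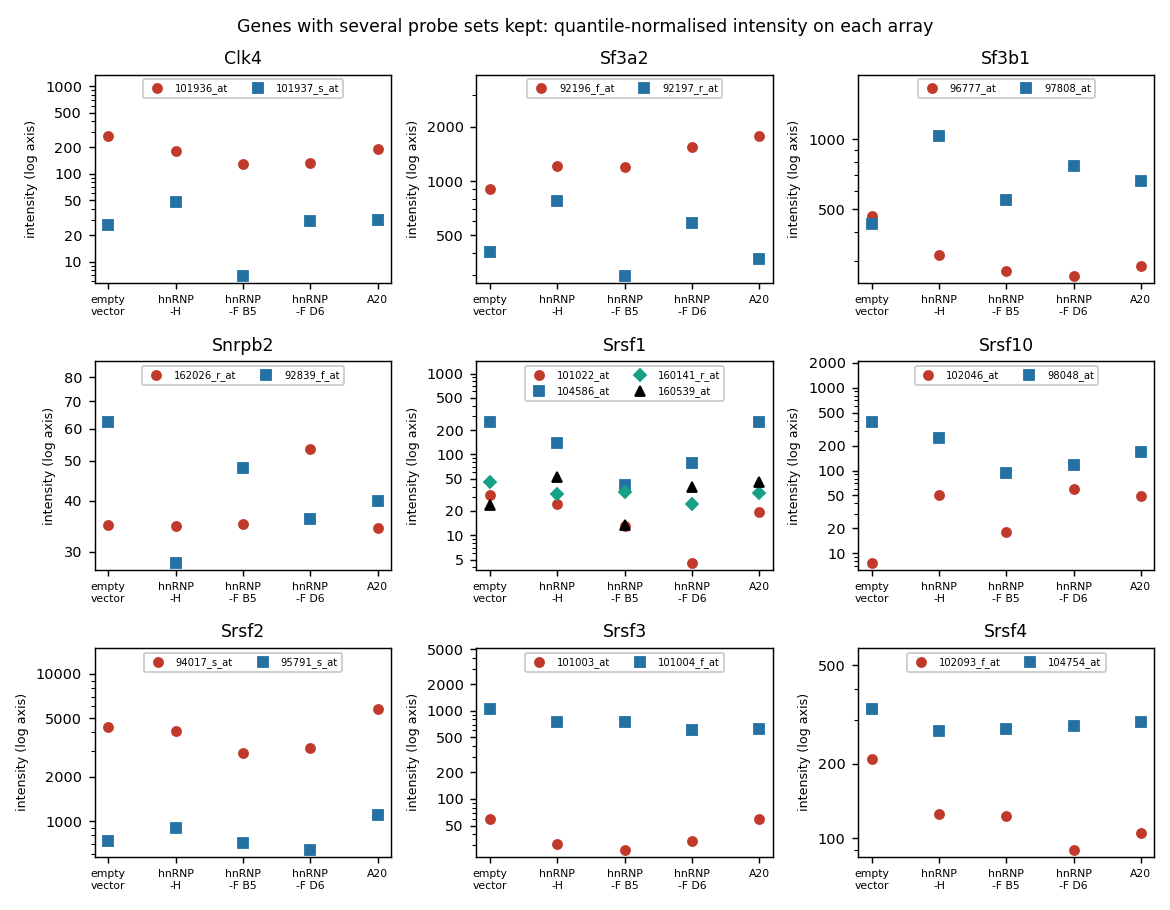
Quantile-normalised intensity (vertical axes, log scale) on each of the 5 arrays for the 9 genes with several probe sets tested; each symbol is 1 probe set on 1 array. The probe sets of Srsf2 and Clk4 place the clones alike at or below the controls, save D6 in the dimmer one of Clk4, while those of Srsf10 and Sf3b1 order the arrays differently.

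Between single arrays the members could be described only, with no test. From empty vector to hnRNP-H 4 member probe sets were at least 2-fold higher, against 9.97% of all, and none at least 2-fold lower, against 8.16%. These were the dim Srsf10 probe set (log2 difference 2.01), Snrpd3 (1.56), the second Sf3b1 probe set (1.25) and Snrpc (1.02). The median was -0.09. From B5 to D6 3 were at least 2-fold higher, against 6.23%, and none lower, against 5.74%. They were the dim Srsf10 probe set (1.43), the dim one of Clk4 (1.41) and a dim one of Srsf1 (1.22), and the median was 0.11. For the probe sets named in both comparisons, the array with the higher value has the higher Gapdh ratio. Over all members tested, 25 lay lower in hnRNP-H than in empty vector, and 17 lay lower in D6 than in B5. The part of RNA quality was not tested.

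The second comparison set A20, the B cell line, against the AxJ controls. No member passed, where 5.89% of all probe sets did, and the lowest adjusted p was 0.0883. At an unadjusted p under 0.05, 3 of 43 members lay higher and 1 lower, against 19.3% in either direction among all probe sets. None was at least 2-fold above all 4 AxJ arrays (5.29% of all probe sets) or at least 2-fold below them (4.88%). A20 lay above all 4 AxJ arrays for 13 of 43 members, against 26% of all probe sets, and below them for 5, against 28.9%. Of the 13 higher, 9 belonged to the core spliceosome. The median difference of the members was -0.01, against -0.04 for all probe sets. The fit assumes that the single A20 array has the same spread as the AxJ arrays.

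By the probe sets tested, all 3 factors at the 3' splice site had their highest reading in A20. U2af2 read 2916 and 3589 in the controls, 3659 and 3397 in the clones and 5999 in A20. A20 was the highest array, and it exceeded the controls by 0.89 (log2, SE 0.28, limma adjusted p = 0.119). Under the authors' scaling the difference was 0.49 (limma adjusted p = 0.549). U2af1 and Sf1 differed by 0.55 (SE 0.35) and 0.58 (SE 0.52) and were also highest in A20. Thus 3 of the 3 probe sets tested lay above all AxJ arrays. That of Sf1 was dim, with 72.1 in A20 and 59.3 in empty vector.

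Sf3a1, a subunit of the SF3a complex of the U2 particle, read 254 in both controls, 241 and 349.8 in the clones and 604 in A20. Its log2 difference was 1.23 (SE 0.35, limma adjusted p = 0.0883), the highest of the members. Sf3a3 read 847 and 771 in the controls, 672 and 748 in the clones and 1207 in A20. Sf3a2, Sf3a3 and Sf3b2 differed by 0.78, 0.57 and 0.50 and were highest in A20, but the second Sf3a2 probe set differed by -0.59. The 2 probe sets of Sf3b1 lay at -0.43 and -0.02, so that 4 of 7 SF3 probe sets were above 0 and 3 below. Prpf8 read 689.5 and 943 in the controls, 649 and 1061 in the clones and 1322 in A20, a difference of 0.71 (SE 0.38, limma adjusted p = 0.364).

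Snrpd3 differed by 1.18 (SE 0.58, limma adjusted p = 0.322). Without hnRNP-H it was the 1 member that passed, at 1.95 (limma adjusted p = 0.0286), with empty vector, its lowest array, as the lone control. Without empty vector it was 0.40 (limma adjusted p = 0.587). Snrpg, with 3772 and 3167 in the controls, 3125 and 2449 in the clones and 2207 in A20, differed by -0.65 (SE 0.30, limma adjusted p = 0.287) and was lowest in A20. Snrpb and Snrpe lay at -0.17 and 0.04. The 4 probe sets of U1 and U2 proteins lay between -0.07 and 0.15.

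**Figure D5:**
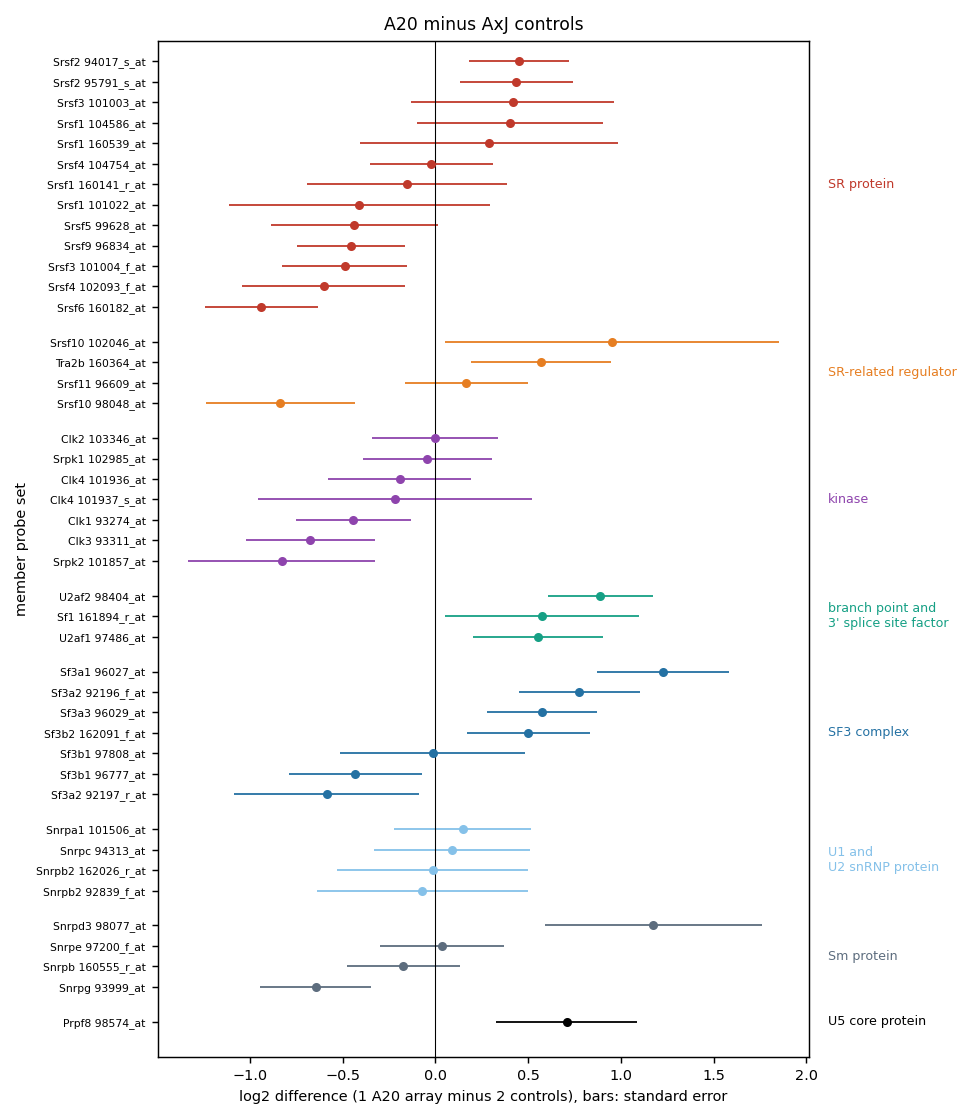
Log2 difference of the A20 array minus the 2 AxJ controls (horizontal axis) for the 43 member probe sets tested, by class; points are limma estimates and bars their standard errors. The 3 probe sets of branch point and 3' splice site factors lie at 0.55 to 0.89, and Srsf6 lies lowest at -0.94.

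SR proteins and kinases had no common direction in A20. Srsf6 was lowest there, with a difference of -0.94 (SE 0.30, limma adjusted p = 0.125), and the brighter Srsf10 probe set differed by -0.84 (SE 0.40, limma adjusted p = 0.308). That Srsf10 difference was -0.53 without empty vector and -0.088 with all 4 AxJ arrays as controls (limma adjusted p = 0.971). The dim Srsf10 probe set went the other way, at 0.95 (SE 0.90). Srsf2 differed by 0.45 and 0.44 and was highest in A20 in both probe sets. Srsf1 ran from -0.41 to 0.40 over its 4 probe sets, with 2 below 0. Srsf3 disagreed between its probe sets, at -0.49 with 1043 and 752 in the controls, 750.2 and 603 in the clones and 629 in A20, and at 0.42 with 59.7 and 30.7, 26.7 and 33.4, and 59.7. The kinases ran from -0.83 (Srpk2) and -0.68 (Clk3) to 0 within rounding (Clk2). Clk3 read 135 in A20 and 209 to 264 on the AxJ arrays, and differed by -0.39 under median scaling. With all 4 AxJ arrays as controls Srpk2 differed by -0.41. All 7 kinase probe sets lay below 0, as did 4757 of all 9107 probe sets, but 5 of the 7 did under the authors' scaling and 4 under median scaling. The median of all probe sets was -0.04, -0.14 and 0.07 under the 3 scalings, and that of the members -0.01, 0.04 and 0.26.

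The other genes of the spliceosome gave a wider view. Of 112 further genes listed, 75 had a probe set of their own, and 85 of their 91 probe sets were tested. None passed in either comparison. In the hnRNP-F clones the median was -0.14, with 53 of 85 below 0, against 4503 of all 9107 probe sets. At a limma unadjusted p under 0.05 there were 4 lower and 1 higher of 85, near the 5.79% of all probe sets called in either direction. Both clones lay below both controls for 23 and above both for 8, against 19.4% and 18.2% of all probe sets.

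Among these genes the RS-rich and U1 auxiliary proteins lay low in the clones. Their 9 probe sets, of 7 genes, had a median of -0.56, with 9 of 9 below 0. Empty vector stood high for this class, since hnRNP-H minus empty vector had a median of -0.66 with 7 of 9 below 0, and D6 minus hnRNP-H one of -0.34 with 6 of 9 below 0. Rbm39, an RS-rich relative of U2AF, differed by -1.04 (SE 0.35) and Luc7l3, a U1-associated protein, by -0.98 (SE 0.36). U2surp, a U2-associated SR-related protein, differed by -1.26 (SE 0.40) and Cwc22, which recruits the exon junction complex, by -1.06 (SE 0.33). The limma adjusted p was 0.790 for each of these 4. A second Rbm39 probe set differed by -0.56. On the other side stood Lsm2, a subunit of the ring on U6 RNA, at 0.88 (SE 0.29), Ppie at 0.95 (SE 0.43) and Smn1, of the particle assembly complex, at 0.60 (SE 0.26). The 35 probe sets of the tri-snRNP and catalytic core had a median of -0.07.

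In A20, 10 of these other probe sets lay lower and 7 higher of 85 at an unadjusted p under 0.05, near the 19.3% of all probe sets called in either direction, with a median of 0.01. Cwc15 came nearest to the threshold, at -1.41 (SE 0.35, limma adjusted p = 0.0552). Puf60, a U2AF-related factor of the 3' splice site, differed by 1.06 (SE 0.31, limma adjusted p = 0.0943), Srrm1 by 0.84 (SE 0.30), Sf3b5 by -0.86 (SE 0.29) and the export receptor Nxf1 by -1.11 (SE 0.38). Srpk3, a relative of Srpk1 and Srpk2, read 76.4 in A20 and at most 21.8 in the AxJ lines, a difference of 2.02 (SE 0.71, limma adjusted p = 0.160). It exceeded the filter in A20 alone and was kept only through that array. Cwc15 and Srrm1 each had a second, dimmer probe set, and these differed by 0.12 and 0.08.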

How the data were processed

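Per the deposited values, the authors' files give a linear intensity for each probe set on each array, scaled to a common trimmed mean of about 150 (2 percent trimmed at each end). The software, background step and detection calls behind it are not named in the labels. Of 12488 probe sets, 66 controls were set aside. Symbols from the 2016 array annotation were updated through gene identifiers. 10855 probe sets had 1 symbol, 396 several and 1237 none, and only those with 1 were named.

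After quantile normalisation, log2(intensity + 6.55) was fitted for the 9107 probe sets with any value above 21.8 (40th percentile). The added 6.55 (20th percentile) shrinks the differences of dim probe sets. The model (limma 3.58.1 in R 4.3.3, eBayes with trend) had 3 coefficients for 5 arrays, 1 each for the clones, the AxJ controls and A20, hence 2 residual degrees of freedom beside a prior of 6.46. Empty vector and hnRNP-H count as replicates of 1 control, so any effect of hnRNP-H enters the spread. Tests were two-sided and adjusted by Benjamini-Hochberg over the 9107. An exact test of 2 arrays against 2 cannot go below p = 0.333. The fit was checked on simulated data.

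Members, lists and rules were chosen with earlier results of these data known. Members given by array were the 6 a direction with the largest moderated statistic in each tested comparison, those at least 2-fold apart between single arrays, and genes whose probe sets differ in sign. Of the other spliceosome genes, the 3 a direction with the largest statistic were named. Clk4, Srpk1, Luc7l3, the per-array values of the first Sf3b1 probe set and the per-array differences of Snrpb2 were singled out after their values were seen. Snrpb2 met the rule for differing signs but is given by differences only. Alternatives covered scaling, pseudocount, filter, trend, probe set choice, grouping, a block by Gapdh ratio and each AxJ array left out. The number of arrays limits the precision.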

Additional observations from a re-analysis of the deposited data

How the results depend on the processing

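The labels pair no arrays by number, and the block by Gapdh ratio left 8 lower members at an unadjusted p under 0.05. For the hnRNP-F clones no alternative, this block included, brought a member past the threshold. The members' median of -0.19 ran from -0.30 to -0.11 with 1 AxJ array left out, and was -0.074 with 1 probe set per gene and -0.31 with empty vector as the only control. Leaving out 1 array gave 3 to 8 lower members at an unadjusted p under 0.05 (3 without B5, 4 without empty vector) and 0 to 2 higher, and empty vector as the only control gave 2 higher. Without empty vector the differences of Snrpd3, U2af1, Snrpc and the dim Srsf10 probe set turned to -0.12, -0.050, -0.23 and -0.52, and without hnRNP-H they were 1.44, 0.58, 0.80 and 1.48. Without D6 that of the dim Srsf10 probe set was -0.21. Both clones lay above both controls for 3 members under the authors' scaling, 2 under median scaling and 0 with the filter at the 60th percentile. The median in A20 was 0.038 under the authors' scaling, 0.26 under median scaling, -0.010 with the pseudocount at the 40th percentile, 0.018 with the filter at the 60th, 0.018 with 1 probe set per gene, 0.18 with all 4 AxJ arrays as controls and -0.015 to -0.013 with 1 AxJ array left out. In A20 there were 0 lower and 5 higher members under median scaling, 0 and 1 without the intensity trend, and 1 to 3 and 2 to 5 with 1 array left out, where 0 to 1 passed (Snrpd3). Under median scaling 1 member lay at least 2-fold above all AxJ arrays. Between D6 and B5, 1 member was at least 2-fold apart with the pseudocount at the 40th percentile and 0 with the filter at the 60th, where the dim probe sets drop out. Of 321 values of the 19 probe sets named by rule, 315 kept their direction and side of the threshold. For the others the cause was not tested.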
